A study of Mus musculus with 32 samples.

Results

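Fat cells were followed in murine mesothelioma through 10 genes that mark white or brown adipocytes: Adipoq, Plin1, Cidec, Cidea, Lep, Retn, Cfd, Ucp1, Fabp4 and Lipe. They were chosen by symbol from the known biology of fat, with earlier results of these data known. Of the 10, 8 have a row among the 39676 genes of the count table. Cidea and Cfd are not analysed here. The values cover 32 tumors, with 8 in each of 4 groups, the AB1 and AE17 models grown either in the pleural cavity (intrapleural, IPL) or under the skin (subcutaneous, SC).

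AB1 and AE17 are mouse mesothelioma cell lines. AB1 cells (500000 per mouse) were given to BALB/c mice and AE17 cells (1000000 per mouse) to C57BL/6 mice, in 200 µL into the pleural space or in 100 µL under the skin of the flank. All mice were female, 8 to 10 weeks old and untreated, and whole tumors were taken on day 10 for RNA sequencing, after the lungs and surrounding tissue had been removed from the IPL tumors. The cell line, the mouse strain and the number of cells go together, so that their contributions to a difference between the models cannot be told apart.

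White adipocytes store triglyceride in a large droplet that is coated by perilipin 1 (Plin1) and enlarged by the droplet fusion protein Cidec, and hormone-sensitive lipase (Lipe) helps to break the stored fat down. They secrete adiponectin (Adipoq), leptin (Lep) and resistin (Retn), and carry fatty acids on the binding protein Fabp4. Brown adipocytes share most of these genes, make little leptin, and burn fat as heat through the mitochondrial uncoupling protein Ucp1. In mice, fat of both kinds lies around the chest organs and the great vessels, whereas the flank carries mainly white fat under the skin.

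Total counts per tumor ranged from 15432258 to 20649645, and 3 counts, taken as the lowest count that shows a gene, corresponded to between 0.139 and 0.190 CPM, the count as a share of the library size after TMM scaling. All AB1 IPL tumors were sequenced in lane 3, with AB1 SC replicates 1 and 2, and the other 6 AB1 SC tumors in lane 2. AE17 IPL replicates 1 to 5 were in lane 2, and replicates 6 to 8 were in lane 1 with all AE17 SC tumors. Mesothelial markers with a row (Upk3b, Wt1 and Lrrn4, 3 of 5 listed) were low in the tumors of these mesothelioma lines, with summed levels of 0.162 to 66.2 CPM in AB1 IPL, 0.465 to 2.56 in AB1 SC, 0 to 13.6 in AE17 IPL and 0.0606 to 0.465 in AE17 SC tumors. AE17 IPL replicate 5 and AB1 IPL replicates 1 and 2 stood apart in the adipocyte genes, and the site and model differences of the adipocyte genes that rest on them are given with and without them.

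The 8 genes lie on chromosomes 3, 6, 7, 8 and 16 of GRCm38 in the GENCODE M21 annotation. Adipoq spans chr16:23146536-23158028, Plin1 chr7:79720218-79732903, Cidec chr6:113424634-113435760, Lep chr6:29060220-29073877, Retn chr8:3655770-3660110, Ucp1 chr8:83290352-83298452, Fabp4 chr3:10204088-10208576 and Lipe chr7:25379527-25398710. Only Lipe overlaps another annotated gene, the antisense gene 4732471J01Rik. Whether reads were counted by strand is not given in the sources used here, so that reads of the pair cannot be told apart.

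The sequences before the starts of 6 of these genes are shown because Plin1, Cidec and Retn followed Adipoq closely across the IPL tumors, whereas Lep and Ucp1 followed it less closely. RefSeq promoter windows on GRCm38.p6, from 250 bases before to 50 after a start, were at hand for 7 of the 8 genes in 9 windows. The 250 bases before the start are printed 5′ to 3′ on the strand of the gene. Capitals mark matches, on either strand, to the letters TATAAA (the TATA box), CCAAT (the CCAAT box), TTGCNNAA (a C/EBP motif) or to the PPAR-RXR direct repeat, a pair of AGGTCA boxes with 1 base between them.
Adipoq, chr16:23146286-23146535, plus strand: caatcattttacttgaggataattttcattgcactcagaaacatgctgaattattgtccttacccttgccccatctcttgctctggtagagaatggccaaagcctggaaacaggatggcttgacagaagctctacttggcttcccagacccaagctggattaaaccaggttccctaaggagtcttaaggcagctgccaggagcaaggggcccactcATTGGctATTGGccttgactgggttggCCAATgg
Plin1, chr7:79732777-79733026, minus strand: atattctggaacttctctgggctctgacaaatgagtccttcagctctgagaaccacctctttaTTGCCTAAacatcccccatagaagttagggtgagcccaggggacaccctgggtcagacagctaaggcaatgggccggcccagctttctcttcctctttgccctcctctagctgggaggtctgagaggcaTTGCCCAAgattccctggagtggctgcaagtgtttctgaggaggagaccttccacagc
Cidec, chr6:113434765-113435014, minus strand: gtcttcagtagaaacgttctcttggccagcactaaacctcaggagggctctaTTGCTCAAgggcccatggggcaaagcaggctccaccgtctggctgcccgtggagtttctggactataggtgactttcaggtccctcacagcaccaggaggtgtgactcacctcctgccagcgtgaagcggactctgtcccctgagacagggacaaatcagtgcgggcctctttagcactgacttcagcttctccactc
Retn, chr8:3655520-3655769, plus strand: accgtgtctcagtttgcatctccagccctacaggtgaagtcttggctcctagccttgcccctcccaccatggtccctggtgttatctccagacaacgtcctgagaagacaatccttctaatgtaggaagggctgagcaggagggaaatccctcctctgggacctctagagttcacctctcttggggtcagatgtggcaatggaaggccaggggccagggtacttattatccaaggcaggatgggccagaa
Lep, chr6:29059971-29060220, plus strand: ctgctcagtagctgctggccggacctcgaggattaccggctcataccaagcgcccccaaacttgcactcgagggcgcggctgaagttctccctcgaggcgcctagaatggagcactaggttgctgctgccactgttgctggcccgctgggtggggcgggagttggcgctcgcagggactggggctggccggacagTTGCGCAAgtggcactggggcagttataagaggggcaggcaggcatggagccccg
Ucp1, chr8:83290098-83290347, plus strand: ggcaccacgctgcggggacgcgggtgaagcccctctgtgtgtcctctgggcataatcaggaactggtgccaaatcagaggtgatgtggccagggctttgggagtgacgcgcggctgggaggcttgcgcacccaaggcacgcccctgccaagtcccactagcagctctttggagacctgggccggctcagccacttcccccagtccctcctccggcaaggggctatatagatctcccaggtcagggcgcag

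The CCAAT letters stood in 1 of the 9 windows, that of Adipoq, where they matched 3 times, from 34, 27 and 7 bases before the start. The C/EBP letters stood in 3 of the 9 windows. They matched at 187 and 58 bases before the start of Plin1, at 198 bases before the start of the Cidec window shown and at 55 bases before the start of Lep. None of the 9 windows held TATAAA or the PPAR-RXR direct repeat. Of all 32851 promoter windows, 37.4% held CCAAT, 10.8% TTGCNNAA, 13.6% TATAAA and 0.0396% the PPAR-RXR direct repeat. No match overlapped another, and a match describes letters only.

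Per length of the transcript, Fabp4 was the most abundant of the 8 genes in every group by the median. In AB1 IPL tumors its median was 12.3 RPKM (CPM per kilobase of exon), followed by Adipoq at 3.69, Lipe at 3.35, Cidec at 1.16, Plin1 at 0.554, Retn at 0.283, Ucp1 at 0.113 and Lep at 0.0407 RPKM. The ranges of neighbours in this order overlapped. Fabp4 is also made by capillary endothelium and macrophages, and Lipe in other tissues, and neither gene fell below 10 CPM in any of the 32 tumors. The other 6 genes were at 0 in at least 1 tumor.

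**Figure D1:**
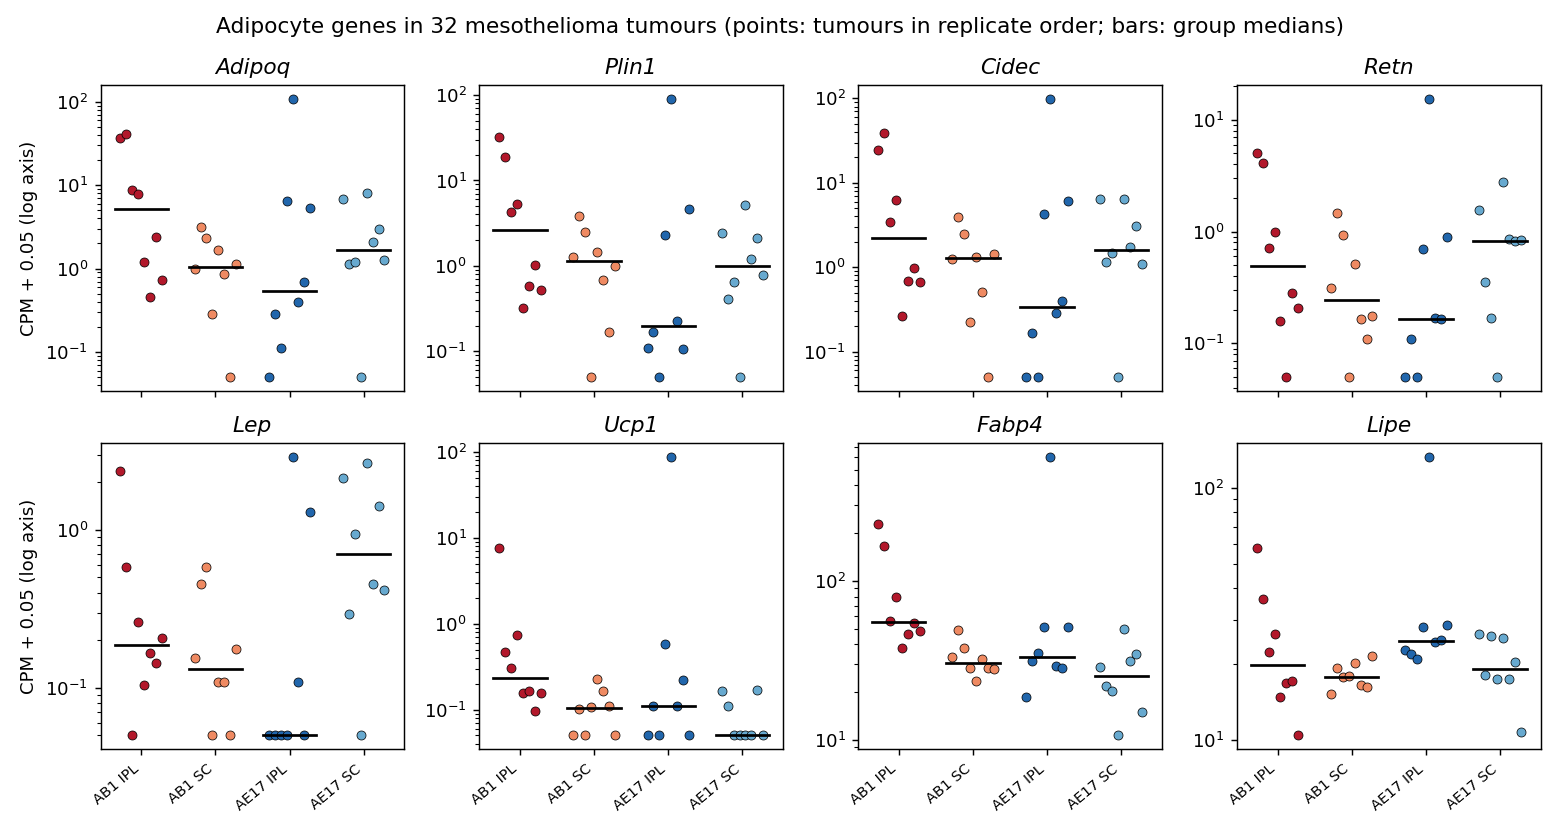
Levels of the 8 adipocyte genes in each of the 32 tumors, in CPM plus 0.05 on a log axis, with points in the order of the replicate numbers and a bar at the median of each group. AE17 IPL replicate 5 is the highest AE17 tumor in all 8 panels, and AB1 IPL replicates 1 and 2 are the highest AB1 tumors for all genes except Ucp1, for which replicate 2 lies below replicates 1 and 4.

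In the AB1 model, Adipoq and Fabp4 were higher in IPL than in SC tumors. Of the 8 genes, 5 passed the filter on low counts in AB1 tumors and were tested with edgeR. The 2 called higher compare with 12.3% of all 14645 genes tested that were called higher in IPL tumors and 23% called in either direction (Benjamini-Hochberg adjusted p under 0.05). The median log2 fold change was 2.54 over the 5 genes (0.54 without IPL replicates 1 and 2) and -0.0023 over all genes tested. A gene that is high in the IPL tumors alone can pass the filter through them, so that these counts describe the tested genes only. In whole tumors, a difference in the number of fat cells and a difference in the RNA that each of them makes cannot be told apart.

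Adipoq ranged from 0.408 to 41.3 CPM across AB1 IPL tumors with a median of 5.10 CPM, and from 0 to 3.13 CPM across AB1 SC tumors with a median of 1.01 CPM. IPL replicates 1 to 4, with 733, 778, 173 and 149 counts, lay above every SC tumor, and the other 4 IPL tumors lay within the range of the SC tumors. The edgeR fold change was 9.57 (log2 3.26, SE 0.95, adjusted p = 0.0198). IPL replicates 1 and 2 together held 78.5% of the Adipoq of the group. Without both of them the log2 fold change was 1.46 (adjusted p = 0.174 in edgeR), and with any single tumor left out it lay between 2.70 and 3.61 (adjusted p between 0.0103 and 0.0420).

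Fabp4 ranged from 37.8 to 227 CPM in AB1 IPL tumors (with a median of 55.4) and from 23.3 to 49.0 CPM in AB1 SC tumors (median 30.5). Of the 8 IPL tumors, 5 lay above every SC tumor and all 8 above the SC median. The fold change was 2.72 (log2 1.45, SE 0.35, edgeR adjusted p = 0.00609). Without IPL replicates 1 and 2 the log2 fold change was 0.71 and remained past the threshold (adjusted p = 0.00850).

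The droplet genes Plin1 and Cidec and the lipase Lipe did not pass the edgeR test in AB1. Plin1 had a log2 fold change of 2.54 (SE 0.97, adjusted p = 0.0704), with 0.271 to 32.002 CPM in IPL tumors (median 2.58) against 0 to 3.79 CPM in SC tumors (median 1.08). Cidec had 2.77 (SE 1.01, adjusted p = 0.0587), with 0.216 to 38.7 CPM in IPL (median 2.14) against 0 to 3.89 CPM in SC tumors (median 1.24). As for Adipoq, IPL replicates 1 and 2 were the highest tumors for both genes, and without them the log2 fold changes were 0.54 for Plin1 and 0.54 for Cidec. With DESeq2 both genes passed (adjusted p = 0.0369 and 0.0242), which made 4 of 5 genes called higher where 26.4% of all genes were called in either direction. Lipe ranged from 10.4 to 57.8 CPM in IPL (median 19.7) and from 15.2 to 21.4 CPM in SC tumors (median 17.8), a log2 fold change of 0.47 (SE 0.27, adjusted p = 0.224).

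Within lane 3, where 8 IPL tumors could be set against 2 SC tumors, the log2 fold changes in AB1 were 2.53 for Adipoq (adjusted p = 0.623) and 1.06 for Fabp4 (adjusted p = 0.598). None of the 7 adipocyte genes tested was called there by edgeR, with 1.06% of 15993 genes called in all (2014 had an unadjusted p under 0.05). With the lane as a covariate the values were 2.58 for Adipoq (adjusted p = 0.483) and 1.11 for Fabp4 (adjusted p = 0.364).

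Ucp1, Lep and Retn were too low for the filter in AB1 and were therefore set against each other with exact two-sided permutation tests of the mean log2 CPM, unadjusted, for which the smallest p that 8 against 8 tumors can give is 0.000155. Ucp1 ranged from 0.0465 to 7.67 CPM in IPL tumors (median 0.186) and from 0 to 0.175 CPM in SC tumors (median 0.0543). IPL replicate 1 had 155 counts, replicates 2, 3 and 4 had 8, 5 and 13, and the other 4 IPL tumors and all SC tumors had 3 or fewer. The difference was 1.52 on the log2 scale (exact permutation p = 0.00932), and 0.81 without IPL replicates 1 and 2 (exact permutation p = 0.0306). Lep reached 2.32 CPM in IPL replicate 1 and 0.531 CPM in replicate 2 against at most 0.530 CPM in SC tumors, which gave 0.53 on the log2 scale (exact permutation p = 0.407). Without these 2 tumors the difference of Lep was -0.12 (exact permutation p = 0.779). Retn ranged from 0 to 5.05 CPM in IPL (median 0.447) and from 0 to 1.41 CPM in SC tumors (median 0.194), which gave 0.85 on the log2 scale (exact permutation p = 0.324). Without IPL replicates 1 and 2 the difference of Retn was -0.073 (exact permutation p = 0.913). The groups overlapped for all 3 genes.

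**Figure D2:**
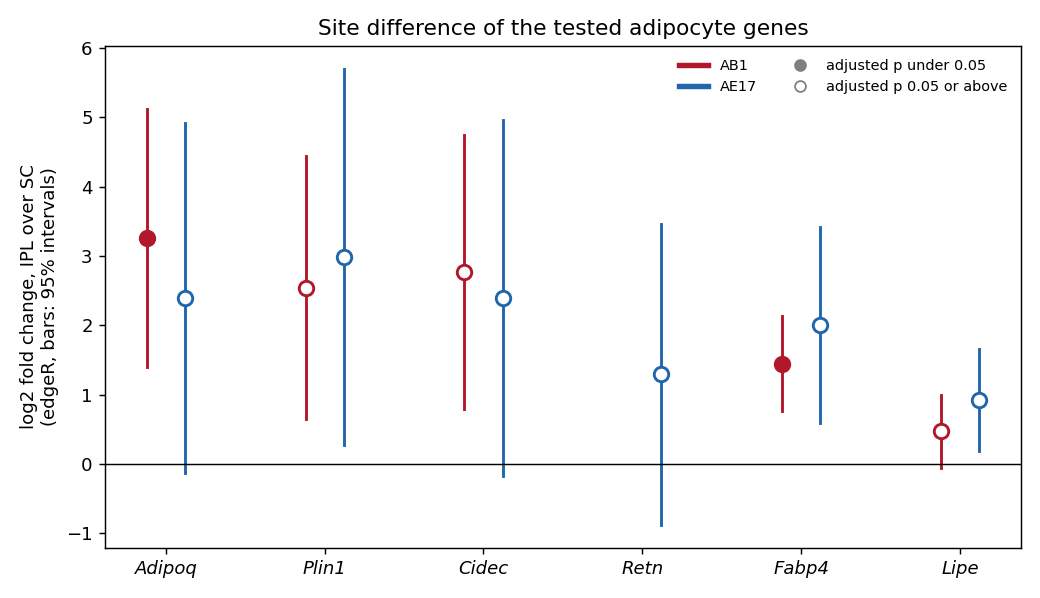
Log2 fold changes of IPL over SC tumors with 95% intervals from edgeR for the adipocyte genes tested in AB1 (red) and AE17 (blue). Filled points mark an adjusted p under 0.05, reached by Adipoq and Fabp4 in AB1, and the AE17 intervals are wide, from -0.14 to 4.92 for Adipoq.

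In the AE17 model none of the 6 adipocyte genes tested was called by edgeR or by DESeq2 (of all 14668 genes, edgeR called 5.73% and DESeq2 11.3%), and 1 IPL tumor held most of the counts of all but Lipe. At an unadjusted p under 0.05, 3 of the 6 passed (Plin1, Fabp4 and Lipe, unadjusted p = 0.0466, 0.0137 and 0.0264), beside 25.2% of all genes. The median log2 fold change was 2.20 over the 6 genes and 0.0043 over all genes tested, and over the 6 genes it was -0.61 without IPL replicate 5. IPL replicate 5 had 1797 counts of Adipoq, 1495 of Plin1, 1636 of Cidec, 254 of Retn and 1444 of Ucp1. It held 89.3% of the Adipoq, 92.5% of the Plin1, 90.0% of the Cidec, 89.5% of the Retn and 99.1% of the Ucp1 of the 8 IPL tumors, 71.0% of the Fabp4, 68.4% of the Lep and 43.5% of the Lipe.

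Adipoq ranged from 0 to 108 CPM in AE17 IPL tumors (with a median of 0.493) and from 0 to 8.03 CPM in AE17 SC tumors (median 1.62). Replicate 5 was the only IPL tumor above every SC tumor, and 7 of 8 SC tumors lay above the IPL median. By the mean the IPL tumors had 5.20 times the level of the SC tumors, and by the median 0.303 times. The edgeR log2 fold change was 2.39 (SE 1.29, adjusted p = 0.259) with all tumors and -0.65 (adjusted p = 0.697) without IPL replicate 5. With DESeq2 at its default settings and all tumors as input it was -0.63 (adjusted p = 0.753), close to the edgeR value without IPL replicate 5. How DESeq2 treated the counts of that tumor was not examined, so that these values do not separate the tool from the tumor. Within lane 1, which holds IPL replicates 6 to 8 and all 8 SC tumors, it was -0.47 (adjusted p = 0.850).

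The droplet genes and Retn had the same pattern in AE17. Plin1 ranged from 0 to 90.2 CPM in IPL (median 0.148) and from 0 to 5.06 CPM in SC tumors (median 0.945). Cidec ranged from 0 to 98.7 CPM in IPL (median 0.290) and from 0 to 6.46 CPM in SC tumors (median 1.56). Retn ranged from 0 to 15.3 CPM in IPL (median 0.116) and from 0 to 2.72 CPM in SC tumors (median 0.781). For each of the 3 genes the IPL mean was above the SC mean and the IPL median below the SC median. Their log2 fold changes were 2.99 for Plin1 (adjusted p = 0.191), 2.39 for Cidec (adjusted p = 0.267) and 1.29 for Retn (adjusted p = 0.498). Without IPL replicate 5 they were -0.56, -0.74 and -1.73 (adjusted p = 0.745, 0.657 and 0.185 in edgeR).

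Fabp4 and Lipe kept the direction of higher levels in IPL tumors without that tumor. Fabp4 ranged from 18.8 to 601 CPM in AE17 IPL (median 33.3) and from 10.7 to 50.0 CPM in AE17 SC tumors (median 25.3), with a log2 fold change of 2.00 (SE 0.72, adjusted p = 0.102) and of 0.40 without replicate 5 (adjusted p = 0.403). Lipe ranged from 20.9 to 132 CPM in IPL (median 24.6) and from 10.7 to 26.4 CPM in SC tumors (median 19.2), with a log2 fold change of 0.92 (SE 0.38, adjusted p = 0.142) and of 0.27 without replicate 5 (adjusted p = 0.264). All 8 IPL tumors lay above the SC median of Lipe.

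Lep was the adipocyte gene with lower values in AE17 IPL tumors by the mean as well as by the median. It was at 0 counts in 5 of 8 IPL tumors and reached 47 counts in replicate 5 and 22 in replicate 8, whereas 7 of 8 SC tumors had between 4 and 41 counts. Levels were 0 to 2.84 CPM in IPL (median 0) and 0 to 2.59 CPM in SC tumors (median 0.652). The difference was -1.59 on the log2 scale (exact permutation p = 0.0841), and -2.10 without IPL replicate 5 (exact permutation p = 0.0163). Ucp1 had 1444 counts in IPL replicate 5, 9 in replicate 4 and at most 3 in the other 6 IPL tumors, and at most 2 in the SC tumors. Its difference was 1.496 (exact permutation p = 0.187), and 0.39 without IPL replicate 5 (exact permutation p = 0.339).

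**Figure D3:**
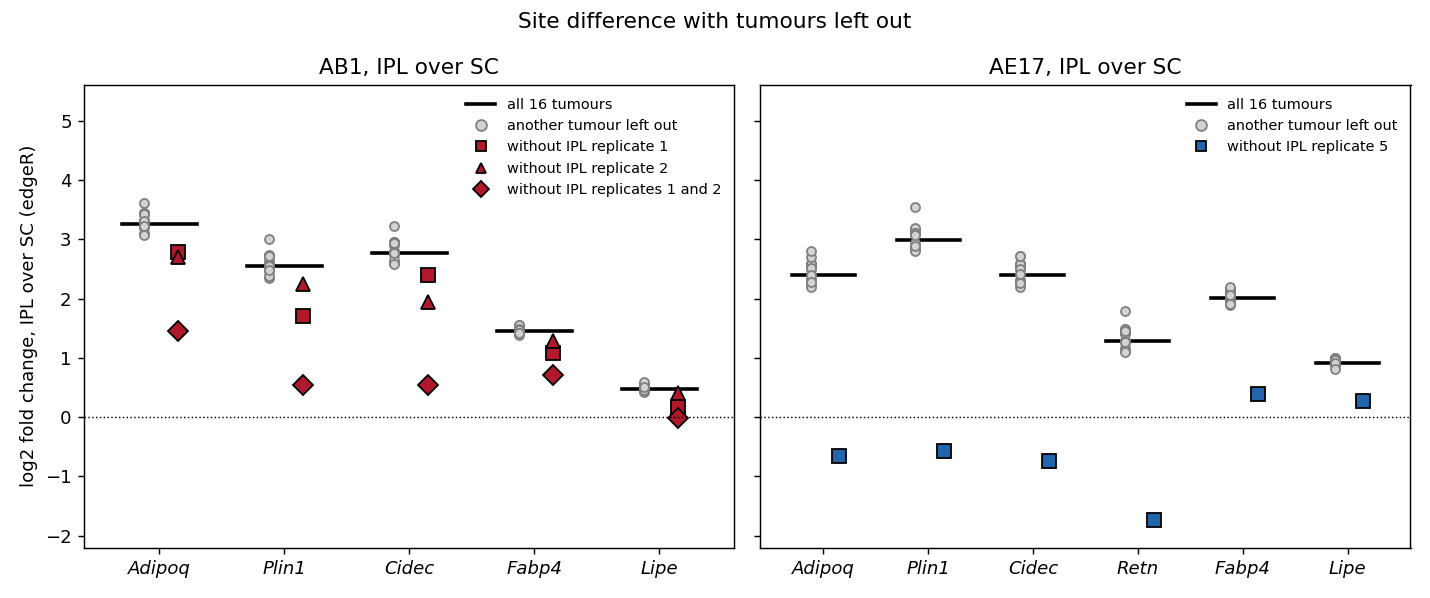
Log2 fold changes of IPL over SC tumors in edgeR with all 16 tumors of a model (bars) and with tumors left out (symbols). In AE17, leaving out IPL replicate 5 moved Adipoq, Plin1, Cidec and Retn below 0, and in AB1, leaving out IPL replicates 1 and 2 together took Adipoq from 3.26 to 1.46.

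AB1 and AE17 tumors were compared in 1 fit of all 32 tumors, in which 6 of the 8 genes were tested. None of the 6 was called between AB1 and AE17 SC tumors, where 58.3% of all 15681 genes were called, or between IPL tumors, where 63.4% were called. The difference between the sites was not called different between the models for any of the 6 (interaction test, 20.5% of all genes called, adjusted p of the 6 between 0.579 and 0.896). None of the 6 had an unadjusted p under 0.05 in these edgeR tests, which 62.2% of all genes had between SC tumors, 66.6% between IPL tumors and 32.7% in the interaction. DESeq2 called none of the 6 between SC tumors (59.3% of all genes called), 4 between IPL tumors, all higher in AB1 (Cidec, Fabp4, Plin1 and Retn, with 64.1% of all genes called), and 1 in the interaction (Retn, with 22.6% called). The 4 of 6 are close to the share over all genes. Between IPL tumors all 6 log2 differences of AB1 over AE17 were below 0 in edgeR with all tumors, -0.30 for Adipoq, -0.64 for Plin1, -0.54 for Cidec, -0.60 for Retn, -0.24 for Fabp4 and -0.59 for Lipe (adjusted p between 0.128 and 0.825). For Adipoq the difference of the site differences was 0.89 on the log2 scale, with a 95% interval from -2.26 to 4.05.

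These model comparisons changed, and between IPL tumors turned in direction, without AE17 IPL replicate 5. In IPL tumors, 5 of the 6 genes were then called, all higher in AB1. Of all genes, 63.0% were called in either direction, and with all tumors 31.6% were called higher in AB1. Adipoq was 6.62-fold higher in AB1 (log2 2.73, SE 1.00, edgeR adjusted p = 0.0191), Plin1 7.43-fold (adjusted p = 0.0166), Cidec 5.93-fold (adjusted p = 0.0353), Retn 5.29-fold (adjusted p = 0.0280) and Fabp4 2.55-fold (adjusted p = 0.00119). Lipe was at 1.03-fold (adjusted p = 0.879). In the interaction test, with 21.1% of all genes called, Adipoq was called (log2 3.92, SE 1.38, adjusted p = 0.0420), and the other 5 were not (adjusted p between 0.0557 and 0.704).

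Without AB1 IPL replicates 1 and 2 instead, the differences between IPL tumors lay further below 0, at -2.09 for Adipoq, -2.64 for Plin1, -2.77 for Cidec, -2.57 for Retn and -0.97 for Fabp4 (edgeR adjusted p between 0.0515 and 0.154), and Lipe was called lower in AB1 (-1.07, adjusted p = 0.00597, with 61.6% of all genes called). The direction between the IPL tumors of the models thus depended on which of these 3 tumors were included. Lep was not tested with all tumors, and it passed the filter in 25 of the 32 fits with 1 tumor left out and was called lower in AB1 SC than in AE17 SC tumors in 20 of them. Lep had at most 9 counts in every AB1 SC tumor and up to 41 in AE17 SC tumors. It therefore entered these fits through tumors outside AB1 SC where it is higher. The fits share most of their tumors and are not separate tests, so that the calls are given as a description. Without AB1 IPL replicates 1 and 2 the log2 difference of Lep between SC tumors was -2.55 (SE 0.93, edgeR adjusted p = 0.0190, with 58.7% of all genes called). No AB1 tumor in that fit had more than 9 Lep counts, so that Lep passed the filter there through AE17 tumors alone.

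The mix of brown and white fat genes differed among the tumors with much Adipoq. In AE17 IPL replicate 5 there were 80.4 Ucp1 counts for every 100 Adipoq counts (95% exact interval 74.9 to 86.2), in AB1 IPL replicate 1 there were 21.1 (17.7 to 25.2), and in AB1 IPL replicate 2, which had the most Adipoq of the AB1 tumors, 1.03 (0.442 to 2.04). Among tumors with at least 10 Adipoq counts the ratio reached 5.56 in AE17 SC and 14.3 in AB1 SC tumors, and 27.3 in AE17 IPL replicate 7, which had 3 Ucp1 counts (4.89 to 103). The intervals of these tumors overlapped that of AB1 IPL replicate 1, and that of AE17 IPL replicate 7 also that of AE17 IPL replicate 5. Per length, Ucp1 in AE17 IPL replicate 5 reached 53.3 RPKM, beside 78.5 RPKM of Adipoq and 53.2 RPKM of Cidec. These ratios were chosen after the values were seen, are given as a description, and the intervals cover counting error only.

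The share of Lep was higher in SC than in IPL tumors by the pooled counts. Pooled over each group there were 34.1 Lep counts per 100 Adipoq counts in AE17 SC tumors, 12.6 in AB1 SC, 3.58 in AB1 IPL and 3.47 in AE17 IPL tumors. Without replicate 5 the AE17 IPL ratio was 10.3, and the AB1 IPL ratio was 1.85 without replicate 1 and 2.90 without replicates 1 and 2, so that single tumors set much of the IPL values. In the 7 AE17 SC tumors with at least 10 Adipoq counts the ratio lay between 20.0 and 78.9. AE17 IPL replicate 5 had 2.62 (1.91 to 3.49) and AE17 IPL replicate 8 had 23.4 (14.004 to 37.5) with no Ucp1 count, so that these IPL tumors of the same model lay far apart. Retn per 100 Adipoq counts was 29.97 in AE17 SC and 33.5 in AB1 SC tumors, against 14.1 in AE17 IPL and 11.4 in AB1 IPL tumors. Cidec was at 90.4 in AE17 IPL and 90.7 in AE17 SC tumors, and at 75.6 in AB1 IPL and 108 in AB1 SC tumors. Plin1 was at 80.2 in AE17 IPL and 52.7 in AE17 SC tumors, and at 63.8 in AB1 IPL and 105 in AB1 SC tumors. Without replicate 5 the AE17 IPL ratio was 56.5 for Plin1, 85.2 for Cidec and 13.9 for Retn. The AB1 IPL ratio without replicates 1 and 2 was 54.6, 56.0 and 9.90 in the same order.

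**Figure D4:**
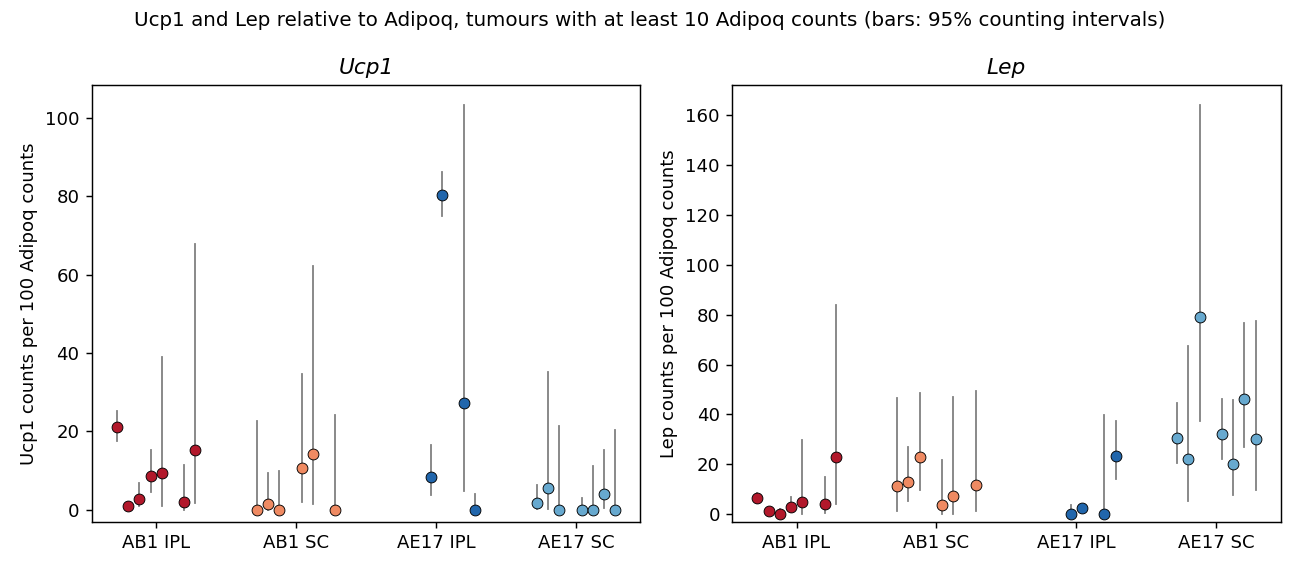
Counts of Ucp1 (left) and Lep (right) per 100 Adipoq counts in the tumors with at least 10 Adipoq counts, with bars for 95% counting intervals. Ucp1 stands at 80.4 in AE17 IPL replicate 5 and 21.1 in AB1 IPL replicate 1, and Lep lies between 20.0 and 78.9 in the AE17 SC tumors shown.

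Within the IPL tumors the fat genes varied together. Over the 8 AB1 IPL tumors, Pearson's r of log2 CPM with Adipoq was 0.98 for Retn, 0.96 for Plin1, 0.95 for Cidec, 0.90 for Lipe, 0.89 for Fabp4, 0.73 for Ucp1 and 0.64 for Lep. Over the 8 AE17 IPL tumors it was 0.98, 0.97, 1.00, 0.86, 0.90, 0.84 and 0.82 in the same order. Without the 2 tumors farthest from the median of Adipoq, r for Cidec was 0.95 in AB1 and 0.99 in AE17, and r for Ucp1 rose to 0.87 in AB1 and fell to 0.09 in AE17. These are descriptions over few tumors that share a group, and depth and RNA composition bear on all genes of a tumor at once.

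The 5 other genes whose pattern was most like that of Adipoq, ranked by the smaller of the r values in the AB1 and AE17 IPL tumors among 13913 genes, were Hp, Plin4, Ppp2r5a, Car3 and Ptger3. Hp, the gene of haptoglobin, which fat cells and liver secrete, had r of 0.98 in AB1 and 0.98 in AE17 and rose to 433 and 708 CPM in the highest tumors, from medians of 40.8 and 6.20 CPM. Plin4 and Car3, a droplet coat protein and a carbonic anhydrase of fat and muscle, had r of 0.96 and 0.96 in AB1 and of 0.95 and 0.92 in AE17. Ppp2r5a, a regulatory subunit of protein phosphatase 2A, had r of 0.96 and 0.93 but varied over a narrow range, from 77.4 to 103 CPM in AB1 IPL and from 86.6 to 129 CPM in AE17 IPL tumors. Ptger3, a prostaglandin E2 receptor, had r of 0.92 and 0.94.

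Some other genes of fat metabolism were higher in AB1 IPL than in AB1 SC tumors. Of 24 listed genes outside the 10, 19 were tested, 7 were called higher in IPL tumors, 12 were not called and none was called lower, with a median log2 fold change of 0.16 (of all genes, 12.3% were called higher and 10.7% lower). The largest rises were in Slc2a4, the insulin-responsive glucose transporter (10.2-fold, adjusted p = 0.000892), and Gpd1, which supplies glycerol phosphate (8.46-fold, adjusted p = 0.00144). The smallest were in Cd36, a fatty acid carrier (1.95-fold, adjusted p = 0.0174), and Lpl, the lipase of circulating triglyceride (2.36-fold, adjusted p = 0.0138). Without IPL replicates 1 and 2, Slc2a4 (log2 3.41) and Gpd1 (log2 2.24) remained past the edgeR threshold (adjusted p = 0.00106 and 0.00433), and Cd36 and Lpl did not (adjusted p = 0.0744 and 0.0793). With single tumors left out, Slc2a4 was lowest without IPL replicate 4 (log2 3.02) and Gpd1 without replicate 1 (log2 2.43). IPL replicate 4 had the highest summed level of skeletal muscle markers in its group (3992 CPM). All 8 of these markers were called higher in AB1 IPL tumors, and the part of muscle in the rises was not tested. Plin4, Car3 and Sncg, a synuclein of fat and nerve, made up the 7. In AE17 none of the 19 was called by edgeR (2, Pnpla2 and Gpd1, had an unadjusted p under 0.05, beside 25.2% of all genes), with a median of 0.40.

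Of 20 thermogenic genes outside the 10, 8 were tested in AB1 and 3 were called higher in IPL tumors, where 12.3% of all genes were. Cox8b (log2 fold change 4.00, adjusted p = 0.000793) and Cox7a1 (2.52-fold, adjusted p = 0.00178) are respiratory chain subunits of brown fat that skeletal and heart muscle share, and Ebf2 (2.69-fold, adjusted p = 0.0175) is a factor of brown fat precursors. Without IPL replicates 1 and 2, Ebf2 was not called (adjusted p = 0.0997). In AE17, 1 of 8 was called, and it was lower (3.13% of all genes were called lower). Zic1, a factor of brown fat and of neural tissue, ranged from 1.13 to 4.16 CPM in IPL and from 2.27 to 10.8 CPM in SC tumors (log2 fold change -1.63, adjusted p = 0.0153). Of 10 adipogenic transcription factors, 9 were tested in each model. Zfp423 (2.01-fold, adjusted p = 0.0228) and Ebf1 (log2 fold change 0.67, adjusted p = 0.00397) were called higher in AB1 IPL tumors (2 of 9, beside 12.3% of all genes), and Cebpb (1.52-fold, adjusted p = 0.0228) in AE17 IPL tumors, where 2.60% of all genes were called higher. The Zfp423 call was lost without AB1 IPL replicate 4 (edgeR adjusted p = 0.0502) and without replicates 1 and 2 (adjusted p = 0.0969), and the Cebpb call without AE17 IPL replicate 4 (adjusted p = 0.0528).

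None of the calls in these 3 lists held within a lane or with the lane as a covariate, and each kept its direction. Within lane 3 the adjusted p of the 12 genes called in AB1 lay between 0.289 and 0.698, and with the lane as a covariate between 0.150 and 0.537. Within lane 1 it was 0.248 for Zic1 and 0.264 for Cebpb in AE17, and 0.198 and 0.225 with the covariate.

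Pparg, the nuclear receptor that drives fat cell differentiation, ranged from 2.89 to 8.50 CPM in AB1 IPL tumors (with a median of 3.83) and from 4.20 to 7.07 CPM in AB1 SC tumors (median 5.01). In AE17 it reached 20.6 CPM in IPL replicate 5, against medians of 4.20 CPM in IPL and 4.29 CPM in SC tumors. It was not called in either model (edgeR adjusted p = 0.829 and 0.405). Ppara, its relative of oxidative tissues, was too low to be tested and had medians of 0.175 CPM in AB1 IPL, 0.0291 in AB1 SC, 0.175 in AE17 IPL and 0.0887 in AE17 SC tumors.

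Markers of other tissues at the chest wall differed between the same groups. All 8 skeletal muscle markers were called higher in AB1 IPL tumors (summed level 107 to 3992 CPM, against 54.3 to 350 CPM in SC tumors), and none was called or had an unadjusted p under 0.05 in AE17 (57.2 to 706 CPM in IPL and 44.4 to 1048 CPM in SC tumors). Heart muscle markers summed to 6.06 to 82.0 CPM in AB1 IPL, 6.09 to 13.8 in AB1 SC, 10.8 to 198 in AE17 IPL and 8.20 to 14.7 CPM in AE17 SC tumors, and 2 of the 3 tested (Tnnt2 and Myl4) were called higher in IPL tumors in each model, with the third, Tnni3, called lower in AB1. In AB1 IPL tumors Myl7 and Nppa had at most 4 counts each, and the largest part of the sum by the mean was Myl4 (22.7 CPM). AE17 IPL replicate 5 was highest for heart markers, with 2005 counts of Myh6, 146 of Myl7 and 75 of Nppa, and its skeletal muscle sum of 706 CPM lay within the range of the AE17 SC tumors.

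The AB1 tumors with much Adipoq differed from each other in these markers. IPL replicate 1 had 2649 CPM of skeletal muscle, 78.0 CPM of heart and 0.890 CPM of mesothelial markers. IPL replicate 2 had 107, 6.06 and 66.2 CPM of the same 3 lists, the lowest muscle and the highest mesothelial sums of its group. The part of these tissues in the fat gene differences was not tested.

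**Figure D5:**
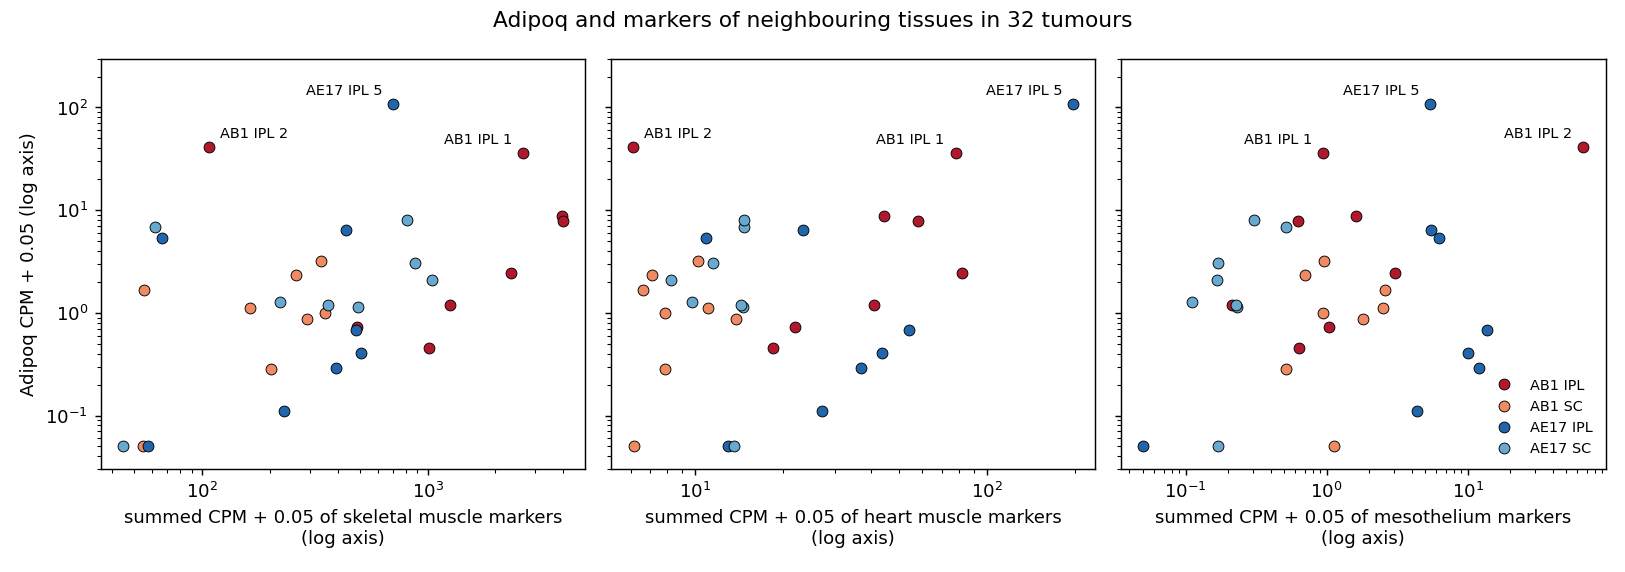
Adipoq against the summed CPM of skeletal muscle, heart muscle and mesothelial markers in the 32 tumors, on log axes with 0.05 added. The labelled tumors with the most Adipoq lie at different places on each axis, with AE17 IPL replicate 5 highest for heart markers (198 CPM) and AB1 IPL replicate 2 highest for mesothelial markers (66.2 CPM).

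Markers of lung, skin and mammary epithelium were low in most tumors. Lung epithelial markers with a row (4 of 6) summed to at most 4.51 CPM, and none passed the filter in either model. Epidermal markers (5 of 6) summed to at most 4.08 CPM in all tumors but AE17 SC replicates 5 and 6 (12.8 and 22.7 CPM), and the single marker tested was not called in either model. Mammary markers (4 of 7) summed to at most 5.09 CPM, with the single marker tested, Csn3, called higher in AB1 IPL tumors (3.96-fold). Of 5 endothelial markers tested, which bear on Fabp4, 1 was called higher in AB1 IPL and 1 in AE17 IPL tumors, with sums of 111 to 190 CPM in AB1 IPL and 123 to 157 CPM in AB1 SC tumors. In AE17 the sums were 146 to 259 CPM in IPL and 135 to 183 CPM in SC tumors, and IPL replicate 5, the tumor with 601 CPM of Fabp4, had the highest of all 32 tumors (259 CPM). The part of endothelium in the Fabp4 values was not tested. Of 5 macrophage markers tested, 3 were called lower in AB1 IPL tumors and none in AE17, where 1 had an unadjusted p under 0.05 in edgeR. The largest of these falls was in Mrc1, 1.92-fold (adjusted p = 0.00845). Alveolar macrophage markers were called lower for 2 of 4 in AB1 (Car4, 9.17-fold, and Siglecf, 4.06-fold) and 1 of 3 in AE17 (Ear1, 4.62-fold), sebaceous markers were called for none of 3 in either model, and the thymocyte marker tested, Themis, was called lower in AB1 IPL tumors (3.39-fold) and was not called in AE17. The highest sebaceous sums of all 32 tumors were in AE17 IPL replicate 5 and AB1 IPL replicate 2 (76.5 and 70.1 CPM), against medians of 17.9 and 28.7 CPM in their groups. AE17 IPL replicate 5 also had the highest thymocyte sum (12.7 CPM). The part of these cells in the fat gene values was not tested.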

How the data were processed

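RNA of 32 whole tumors was sequenced from poly(A) libraries as 50 bp single-end reads. Per the labels and the study's methods, the authors made fastq files with bcl2fastq 1.8.4, aligned them with HISAT2 2.0.4 to a mouse genome named there as mm11, and deposited raw counts per gene. Whether reads were counted by strand, and the annotation release, are not given in the sources used here. No value was normalized before deposit. Reads carry no molecular identifiers, so intervals and the floor of 3 counts cover counting error only, and genes at few counts are imprecise at these depths.

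Groups came from the sample labels. Counts were tested with edgeR 4.0.16 in R 4.3.3 (filterByExpr, TMM, robust quasi-likelihood test, Benjamini-Hochberg adjustment over all genes, threshold 0.05), separately per model for IPL against SC tumors, and over all 32 tumors for the interaction and the differences between models. Members below the filter were compared by exact permutation of log2 CPM with a prior count of 2. Alternatives were DESeq2 1.42.0, other scalings and filters, the lane, a replicate block and tumors left out. RPKM used the summed exon length of GENCODE M21, and genes were located by symbol. The test scripts were tested on simulated data. Figures were drawn with matplotlib 3.10.9.

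The members and gene lists were chosen with earlier results of these data known. Named genes were all members, the 2 largest and 2 smallest called changes of each list in each model, Pparg and Ppara, and the 5 genes most like Adipoq. Plin4, Car3, Sncg, Pnpla2, the single marker genes, Ucp3 and Rxra were named after their values were seen where that rule does not name them. Same-numbered IPL and SC tumors did not deviate together, so the numbers were not taken as pairs. Each tumor is treated as a separate mouse. No pair of tumors of a group had counts that agreed within sampling noise.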

Additional observations from a re-analysis of the deposited data

Results flagged for a closer look

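Among the 32 sets of 8 tumors (8 genes in 4 groups), the highest tumor stood far from the rest in 11 by Dixon's ratio of its gap to the range (critical value 0.526). A rate by chance of about 1 of 20 sets holds for normally distributed values only. The ratios were taken on CPM, which can be strongly skewed, as for Adipoq in AE17 IPL tumors (mean 15.2 and median 0.493 CPM). That rate is therefore no baseline for the 11 sets, which are given as a description. The genes are also not independent, since the same tumor leads most of the flagged sets. AE17 IPL replicate 5 stood apart in all 8 genes, with ratios of 0.941 for Adipoq, 0.949 for Plin1, 0.938 for Cidec, 0.559 for Lep, 0.944 for Retn, 0.994 for Ucp1, 0.944 for Fabp4 and 0.932 for Lipe. AB1 IPL replicate 1 stood apart in Lep (0.771) and Ucp1 (0.916), and AE17 SC replicate 5 in Plin1 (0.529).

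Among 42 related genes tested, the difference between the sites was itself called different between the models for 3 in the edgeR interaction test (7.14%, beside 20.5% of all genes). Zic1 differed by 4.53 on the log2 scale (adjusted p = 0.000454), Ucp3, an uncoupling protein of muscle and brown fat, by 3.48 (adjusted p = 0.0213), and Rxra, the partner of the PPAR receptors, by 0.51 (adjusted p = 0.00722). Zic1 was too low to be tested in AB1 alone, and Ucp3 in either model alone. Zic1 had at most 3 counts in every AB1 SC tumor and Ucp3 1 to 7, so that both entered the fit of all 32 tumors through groups where they are higher, and the size of their log2 differences depends on counts near the floor.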

How the results depend on the processing

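Of 631 recomputed values of single genes, 613 kept their direction. In AB1, 2 adipocyte genes were called. DESeq2 called 4, a minimum of 10 counts in every tumor 1, 1 fit of all 32 tumors 1, the lane as a covariate 0, lane 3 alone 0, no filter 3 (Ucp1 added, log2 4.24, edgeR adjusted p = 0.0326), leaving out IPL replicates 1 and 2 together (chosen after seeing the data) 1, and leaving out single tumors 2 to 4 (4 without IPL replicate 5, 6 or 8). In AE17 the count of 0 became 1 in 1 fit of all 32 tumors (Fabp4) and ranged from 0 to 0 with single tumors left out. The interaction count of 0 became 1 with DESeq2 and 0 to 1 with tumors left out. The IPL contrast of the models went from 0 to 4 with DESeq2, 1 without the filter (Ucp1, lower in AB1) and 0 to 5 with tumors left out, and the SC contrast to 0 to 1 (Lep, lower in AB1, in 20 of 32 fits). Without AB1 IPL replicates 1 and 2 the IPL contrast had 1 (Lipe) and the SC contrast 1 (Lep). Every AB1 SC tumor had at most 9 Lep counts, so that Lep passed the filter in all of these fits through tumors of other groups.

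With the replicate block, for numbers that do not pair the tumors (correlations of -0.32 to 0.012 in AB1 and -0.26 to 0.29 in AE17), AB1 kept 1 called gene (Fabp4), and Ucp1 had the same difference of 1.52 with an exact permutation p of 0.0547. Without AB1 IPL replicates 1 and 2, Lep was at -0.12, Retn at -0.073 and Lipe at -0.019 on the log2 scale. In AE17, Lep lay between -2.10 and -1.33 with single tumors left out. Signs turned in AE17 under DESeq2, the block, the lane covariate and lane 1 alone, in that order, for Adipoq (-0.63, -0.14, -0.46 and -0.47), Cidec (-0.71, -0.36, -0.25 and -0.26) and Retn (-1.66, -0.42, -1.25 and -1.26), and for Plin1 under DESeq2 (-0.59). With single tumors left out they ranged from -0.65 to 2.80, -0.74 to 2.72, -1.73 to 1.79 and, for Plin1, -0.56 to 3.54. The lowest value of each gene came without IPL replicate 5, and the DESeq2 values lay close to these lowest values. The cause was not tested.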
